A study of Mus musculus with 56 samples.

Results

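The 10 SR splicing factor genes Srsf1, Srsf2, Srsf3, Srsf4, Srsf5, Srsf6, Srsf7, Srsf9, Srsf10 and Srsf11 were followed through RNA sequencing of Fmr1 knockout tissues and of N2a cells depleted of Fmr1 or Mbnl1. They were taken by gene symbol from 6 gene tables, 10 of 23259 distinct genes, together with every skipped exon and retained intron event listed under those symbols. All 10 genes passed the filter on low values in every comparison, so no member dropped out. The mouse samples numbered 56 and fell into 19 groups. There were 3 wild-type (WT) and 3 Fmr1 KO samples of each of 6 tissues, namely 3 brain regions (cortex, hippocampus, cerebellum) and liver, muscle and testis; Fmr1 encodes FMRP, an RNA-binding protein whose loss causes fragile X syndrome. N2a is a mouse neuroblastoma line. A first N2a experiment compared 3 samples transfected with an siRNA against Fmr1 (siFmr1) with 2 that received the control siRNA (siNT). A co-transfection experiment held 5 groups of 3 samples: siNT_pcDNA (control siRNA and the control plasmid pcDNA), siFmr1_pcDNA, siMbnl1_pcDNA, siFmr1_nMBNL1 (siRNA against Fmr1 with FLAG-nuclear MBNL1) and siMbnl1_cMBNL1 (siRNA against Mbnl1 with FLAG-cytosolic MBNL1); MBNL1 is an RNA-binding regulator of alternative splicing. The sources used here give no strain, age, sex or Fmr1 allele. Nothing in the labels says that replicates were separate animals or cultures, so each p-value measures only the spread between these samples, which may be technical.

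SR proteins join RNA recognition motifs to a tail rich in serine and arginine, and bind exons and introns of nascent transcripts to guide the choice of splice sites. Kinases of the SRPK and CLK families phosphorylate that tail and control where the proteins sit in the nucleus and how they act. Many SR genes limit their own expression: an excess of the protein favours inclusion of a poison exon, an alternative exon with an in-frame stop codon, or retention of an intron, and such transcripts can be removed by nonsense-mediated decay.

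The 5 stretches of sequence shown here carry the splicing results. They were read 5′ to 3′ from transcripts of mouse build GRCm38, and capitals mark the first in-frame stop codon in the first 3. The Srsf3 stretch runs from the start of its 456-base poison exon (chr17:29039454-29039909, plus strand) to the stop codon, chr17:29039454-29039487. The Srsf7 stretch does the same for its 460-base poison exon (chr17:80204622-80205081, minus strand) and covers chr17:80205054-80205081. The Srsf1 stretch runs from the first base of a 196-base intron (chr11:88049216-88049411, plus strand) to the stop codon that the annotated transcript Srsf1-201 reaches inside it, chr11:88049216-88049269.
Srsf3 poison exon: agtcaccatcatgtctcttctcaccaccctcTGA
Srsf7 poison exon: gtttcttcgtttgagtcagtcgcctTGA
Srsf1 intron start: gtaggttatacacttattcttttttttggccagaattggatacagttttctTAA
The other sequences are coding exons whose inclusion differed between sets of N2a libraries. The Srsf10 exon has 54 bases (chr4:135863523-135863576, plus strand) and also a form of 51 bases, and capitals mark the bases absent from the shorter form. The Srsf7 exon has 36 bases (chr17:80202169-80202204, minus strand) and keeps the reading frame.
Srsf10 exon: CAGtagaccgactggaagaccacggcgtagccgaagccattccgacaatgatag
Srsf7 coding exon: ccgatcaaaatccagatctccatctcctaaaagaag

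The libraries were checked before the genes were compared. Total counts were 26264368 to 41384652 per brain library and 13230785 to 16268865 in the other count tables, and the normalized values of the co-transfection table summed to 31955037 to 33273189 per library. Fmr1 was lower in every KO or siFmr1 library than in each of its controls, although in muscle the margin was small, with 8.06, 10.2 and 10.3 CPM (counts scaled to the library total) in KO against 12, 17.6 and 14.2 in WT. Mbnl1 was at 1408 to 1538 normalized counts in siMbnl1_pcDNA against 3759 to 5017 in siNT_pcDNA, and at 11032 to 13253 in siFmr1_nMBNL1 and 16769 to 23339 in siMbnl1_cMBNL1, where the plasmid supplies it. Defining markers stood in the labelled tissues: the liver list (Alb, Apoa1, Ttr) summed to 71610 to 100838 CPM in liver and the cerebellum list (Gabra6, Cbln3, Pcp2) to 2855 to 3017 CPM in cerebellum. The brain table lists 1 gene of the liver list. In hippocampus it varied widely within each genotype, from 7.22 to 3873 CPM in WT and from 10.7 to 4243 in KO. Its part in the hippocampus values was not tested. The 5 libraries of the first N2a experiment stood apart in a way that crossed the groups: siNT replicate 1 grouped with siFmr1 replicates 1 and 2, and siNT replicate 2 with siFmr1 replicate 3, along a first principal component holding 67.2% of the variance. In the co-transfection table the siNT_pcDNA libraries lay farther from each other than those of the other groups, with a median gap per gene to the group's other libraries of 0.176 to 0.302 on the log2 scale against 0.0869 to 0.140.

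Srsf5, one of the closely related factors Srsf4, Srsf5 and Srsf6, was the most abundant SR transcript per length in each of the 6 WT tissues. Levels per length are the deposited TPM (a length-corrected share of each library), whose tables were normalized separately. The brain libraries were made from polyadenylated RNA and the others from total RNA, so tissues outside the brain table are set side by side with no comparison. In WT cortex Srsf5 stood at 338 ± 4.4 TPM (mean ± SD, n = 3, as in all TPM values here), ahead of Srsf3 at 143 ± 6.7, and both ranges were clear of the next gene in the order. Srsf7 at 103 ± 5.0, Srsf11 at 95.9 ± 8.2, Srsf2 at 86.0 ± 3.1, Srsf1 at 80.3 ± 6.4, Srsf10 at 72.8 ± 5.0 and Srsf6 at 72.2 ± 2.3 TPM followed, and each of these overlapped its neighbour. Srsf4 at 64.7 ± 2.9 and Srsf9 at 51.3 ± 3.0 TPM closed the order. The gap between the highest and the lowest mean was 6.58-fold in WT cortex.

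The order within each other WT tissue was read in the same way. In WT cerebellum Srsf5 stood at 431 ± 22.8 TPM, Srsf3 at 183.5 ± 15.8 and Srsf9, the last, at 63.8 ± 4.0, and in WT hippocampus the same 3 genes stood at 303 ± 4.5, 130 ± 5.1 and 66.6 ± 3.3. In WT liver Srsf2, a factor concentrated in nuclear speckles, held the second place at 89.2 ± 8.3 TPM behind Srsf5 at 141 ± 26.4, and Srsf7 was last at 17.0 ± 4.1. In WT muscle Srsf5 at 80.6 ± 12.1 and Srsf2 at 76.5 ± 14.4 TPM overlapped, with Srsf9 last at 14.2 ± 2.1. In WT testis Srsf5 stood at 122 ± 4.3, Srsf2 at 98.4 ± 8.2 and Srsf7, the last, at 41.6 ± 3.9 TPM. The summed TPM of the 10 genes ran from 1076 to 1138 in WT cortex and 1244 to 1296 in KO cortex, from 1086 to 1101 and 1127 to 1174 in hippocampus, and from 1433 to 1615 and 1449 to 1501 in cerebellum. The cortex sums did not overlap, those of hippocampus did not overlap either, and those of cerebellum did. In muscle the sums ran from 324 to 428 TPM in WT and from 434 to 463 in KO, also without overlap. On the CPM scale the muscle groups did overlap. There the mean log2 step of the 10 genes from the WT mean was 0.20 in WT replicate 3. In the KO muscle libraries it was 0.11, 0.13 and 0.07. The TPM sums of liver (408 to 501 and 390 to 417) and testis (601 to 659 and 622 to 646) overlapped.

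**Figure D1:**
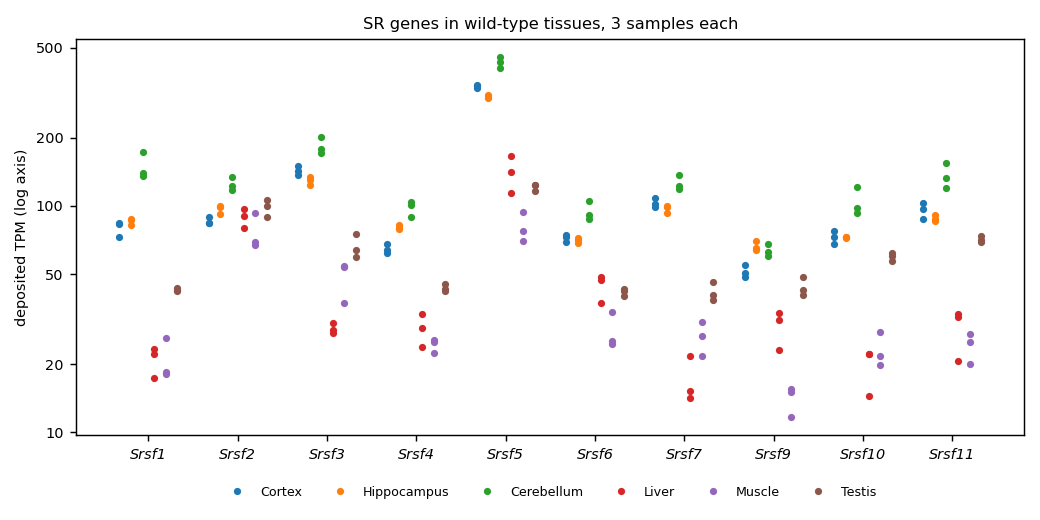
Deposited TPM of the 10 SR genes (log axis) in each of the 3 WT samples of 6 tissues, one point per sample. Srsf5 is the highest in mean in all 6 tissues, at 338 TPM in cortex and 80.6 TPM in muscle; tables of different tissues were normalized separately.

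Among the WT brain regions, 9 of the 10 SR transcripts were most abundant in cerebellum by mean, and Srsf9 was most abundant in hippocampus. All 10 genes were called lower in cortex than in cerebellum by edgeR's quasi-likelihood test (adjusted p under 0.05 over all genes), in a comparison where 67.9% of 15239 genes were called and 34.6% were called lower in cortex. Srsf1, a nuclear export adaptor and splicing activator, stood at 153, 174 and 172 CPM in WT cortex and at 270, 263 and 327 in WT cerebellum. No cortex value reached a cerebellum value, and the log2 difference was −0.79 ± 0.082 (SE; edgeR adjusted p = 5.19e-06). Srsf4 followed at −0.49 ± 0.070, Srsf2 at −0.42 ± 0.063, Srsf10 at −0.41 ± 0.084 and Srsf11 at −0.39 ± 0.082. The smallest differences were those of Srsf7 at −0.18 ± 0.062 (edgeR adjusted p = 0.0261) and Srsf9 at −0.21 ± 0.075 (adjusted p = 0.0265). Srsf7 was no longer called without cerebellum WT replicate 3 or cortex WT replicate 1 or 2 (adjusted p up to 0.113), nor Srsf9 without cerebellum WT replicate 1 or 3 or cortex WT replicate 1 or 2 (up to 0.0956).

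Hippocampus was also below cerebellum for 9 of the 10 genes. All 10 were called by edgeR, against 68% of genes tested (34.6% lower in hippocampus), with Srsf1 at −0.70 ± 0.082, Srsf11 at −0.51 ± 0.082, Srsf10 at −0.41 ± 0.083 and Srsf3 at −0.40 ± 0.061 on the log2 scale. Srsf9, a factor with a short serine- and arginine-rich tail, went the other way at 0.20 ± 0.073 (edgeR adjusted p = 0.0328), with 24.6, 24.3 and 27.2 CPM in hippocampus against 21.9, 21.2 and 23.4 in cerebellum. The call on Srsf9 was lost without cerebellum WT replicate 2 or hippocampus WT replicate 3 (adjusted p up to 0.081), and that on Srsf4, −0.17 ± 0.069, in 6 of 9 fits that left out 1 library (up to 0.314). Between cortex and hippocampus 4 genes were called, against 43.4% of genes. Srsf9 at −0.41 ± 0.075 (edgeR adjusted p = 0.00117) and Srsf4 at −0.32 ± 0.070 (0.00358) were lower in cortex and stayed called in all 9 such fits. Srsf2 at −0.18 ± 0.064 was lost in 5 of the 9 (adjusted p up to 0.11) and Srsf5 at 0.15 ± 0.049 in 7 of the 9 (up to 0.125). In bulk tissue a difference in the share of a cell type and a difference in RNA per cell cannot be told apart.

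In cortex, most SR transcripts were more abundant in the Fmr1 KO samples by small steps, but no gene passed the threshold in the test fitted to the cortex libraries alone. Srsf1 stood at 198, 208 and 201 CPM in KO against 153, 174 and 172 in WT. Srsf3, a small factor that couples splicing to mRNA export, stood at 153, 160 and 154 CPM in KO against 136, 129 and 140 in WT. Srsf7, another export adaptor, stood at 104, 106 and 104 CPM in KO against 83.3, 84.8 and 89.8 in WT. For each of these 3 genes every KO sample lay above every WT sample. Srsf6 stood at 113, 115 and 119 CPM in KO against 92.5, 95.3 and 96.4 in WT. Srsf10, which represses splicing when dephosphorylated, stood at 100.1, 94.9 and 99.1 CPM in KO against 73.6, 78.4 and 83.0 in WT. Again no KO sample fell within the WT range. Srsf2 (61.9, 68.7 and 61.2 against 55.7, 58.5 and 54.5 CPM) and Srsf5 (186, 184 and 187 against 178, 172 and 173 CPM) were also separated, by less. Srsf11, Srsf9 and Srsf4 overlapped; Srsf4 was the one gene with a lower mean in KO, at 49.6, 49.5 and 52.5 against 50.1, 50.8 and 53.3 CPM.

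The cortex differences of the 10 genes ran from −0.03 ± 0.060 for Srsf4 to 0.32 ± 0.062 for Srsf10 on the log2 scale. edgeR's quasi-likelihood test called 0 of 10 at an adjusted p under 0.05, against 0.0203% of the 14802 genes tested. At an unadjusted p under 0.05, 7 of the 10 were higher in KO, against 10.3% of all genes in that direction (21% in either). The values of 7 genes did not overlap and were higher in KO, against 13.3% of all genes (25.7% in either direction), and the median log2 difference was 0.21 for the 10 genes and −0.00 for all genes. Srsf6 at 0.29 ± 0.049, Srsf7 at 0.28 ± 0.053 and Srsf10 had an adjusted p of 0.0668, Srsf1 at 0.28 ± 0.062 had 0.0774 and Srsf3 at 0.20 ± 0.052 had 0.0967. These 5 genes were called by DESeq2 (8.56% of genes with an adjusted p called), by edgeR with all 18 brain libraries in 1 fit (8.24%) and by edgeR without cortex WT replicate 3 (7.36%, adjusted p of 0.0215 to 0.0409). In the authors' deposited table the same 5 carried adjusted p-values of 0.0053 for Srsf1, 0.00756 for Srsf3, 6.04e-05 for Srsf6, 0.000164 for Srsf7 and 0.000906 for Srsf10, with log2 differences of 0.28, 0.19, 0.28, 0.27 and 0.31. Over the 10 genes the mean log2 step from the WT mean was 0.18, 0.23 and 0.20 in the 3 KO libraries and −0.04, 0.01 and 0.03 in the WT libraries. Of the marker lists reported here, 2 moved with genotype in cortex: the summed erythrocyte list (2 of 3 genes listed, Hbb-bs and Alas2) was 59.9 to 61.1 CPM in KO against 66.7 to 85.4 in WT, and the microglia list (3 of 3) 177 to 183 against 183 to 192, the KO maximum lying just under the WT minimum. Their part in the cortex result was not tested; the neuron and astrocyte lists overlapped between genotypes.

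**Figure D2:**
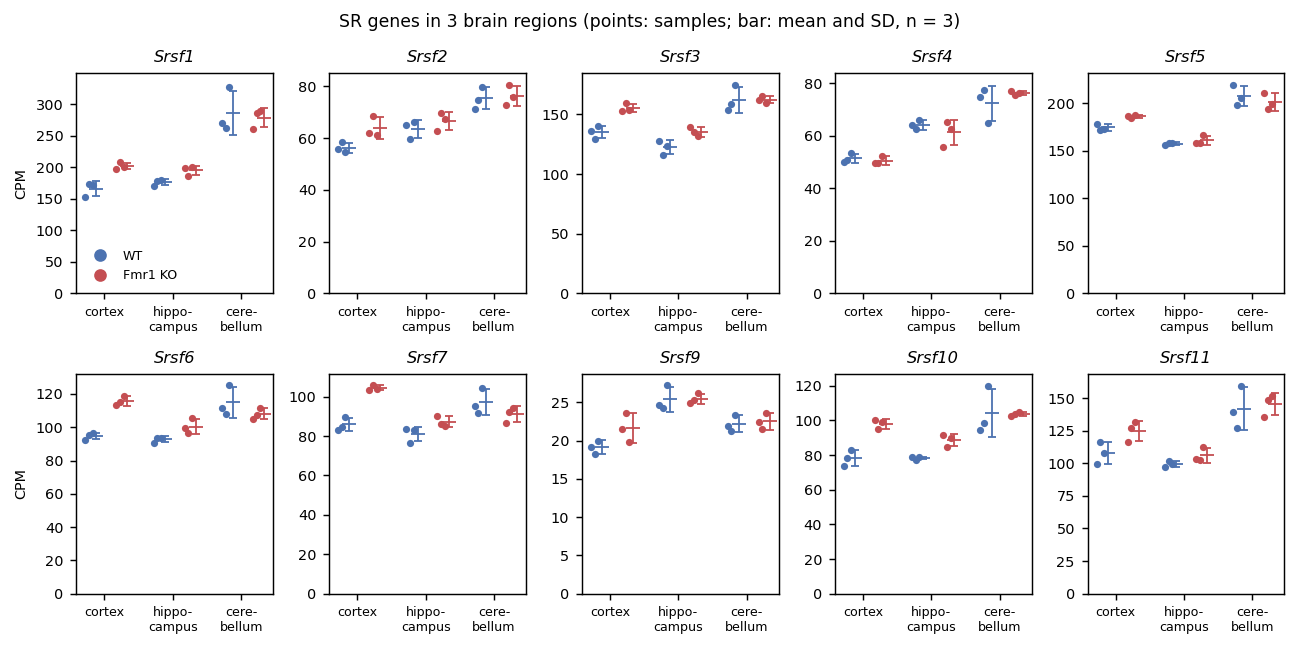
CPM of each SR gene in every brain library, WT in blue and Fmr1 KO in red, with group mean ± SD; 1 panel per gene, 3 regions along each x axis. In cortex 7 of 10 panels show KO values entirely above WT (for Srsf1 198 to 208 against 153 to 174 CPM), and in cerebellum all 10 overlap.

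Hippocampus showed smaller steps in the same direction for most of these genes, and cerebellum showed none. In hippocampus Srsf10 stood at 91.7, 84.9 and 89.6 CPM in KO against 78.6, 77.4 and 78.8 in WT, a log2 difference of 0.18 ± 0.043 (edgeR adjusted p = 0.192). Srsf1 stood at 199, 187 and 200 CPM in KO against 171, 179 and 179 in WT, a difference of 0.14 ± 0.041 (edgeR adjusted p = 0.253). For both genes the KO samples lay above all WT samples. Srsf3, Srsf6, Srsf7 and Srsf11 were separated in the same way, which makes 6 of 10 genes, where 9.81% of all genes had higher and non-overlapping KO values (19.1% in either direction). Of the oligodendrocyte markers, Mbp stood at 2077 to 2167 CPM in KO hippocampus against 2484 to 2665 in WT and Mog at 49.5 to 50.99 against 62.5 to 70.9, and their part in these values was not tested. edgeR called 0 of 10 SR genes, against 0.209% of 14843, and DESeq2 called 0; 4 of 10 had an unadjusted p under 0.05, all higher in KO, against 6.36% of genes (12.5% in either direction). In cerebellum edgeR called 0 of 10 (0.226% of 14627 genes), DESeq2 called 0, 0 of 10 had an unadjusted p under 0.05 (8.72% of genes) and all 10 genes overlapped, where 14.6% of all genes did not. The cerebellum differences ran from −0.09 ± 0.058 for Srsf7 to 0.08 ± 0.066 for Srsf4. Srsf1, at 261, 287 and 289 CPM in KO cerebellum against 270, 263 and 327 in WT, shows the overlap.

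Whether the KO effect differed between regions was tested directly with the interaction term over the 18 brain libraries. Between cortex and cerebellum edgeR called 0 of 10 genes and 0% of all 15504 genes, while 6 of the 10 had an unadjusted p under 0.05 with the larger value in cortex, against 7.42% of genes (15.2% in either direction). The effect of Srsf6 was 0.38 ± 0.074 higher in cortex on the log2 scale (edgeR adjusted p = 0.0891), that of Srsf7 0.37 ± 0.075 (0.0895), that of Srsf10 0.33 ± 0.097 (0.165) and that of Srsf1 0.32 ± 0.101 (0.183). DESeq2 called Srsf6 and Srsf7 in this comparison, where it called 2.74% of genes. Between cortex and hippocampus edgeR called 0 of 10 (0% of genes; DESeq2 0), with 2 of 10, Srsf6 and Srsf7, at an unadjusted p under 0.05 (10.1% of genes). Between hippocampus and cerebellum it also called 0 of 10 (0.00645% of genes; DESeq2 0), with Srsf6 and Srsf7 again at an unadjusted p under 0.05 (5.31% of genes). A difference of the KO effect between regions was therefore not called for any SR gene by edgeR.

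**Figure D3:**
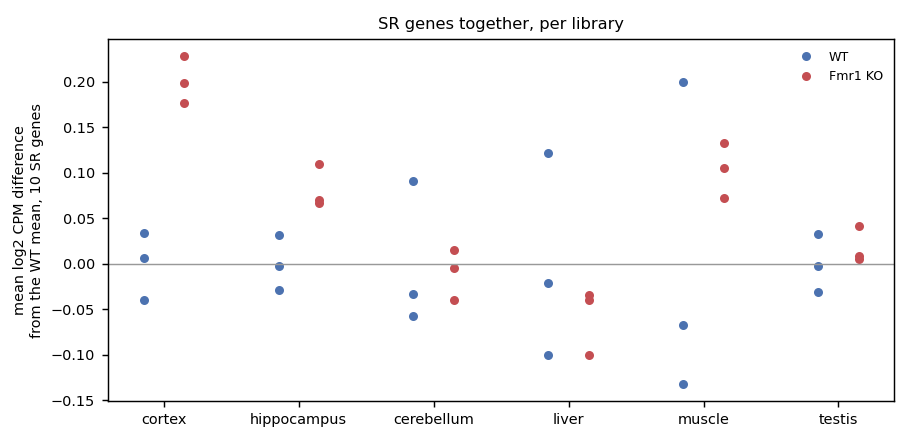
Mean log2 CPM difference of the 10 SR genes from the WT mean of the same tissue, one point per library, for 6 tissues. The 3 cortex KO libraries sit at 0.18 to 0.23, above their WT libraries, while cerebellum, liver and testis KO libraries sit between −0.10 and 0.04. Muscle KO libraries sit at 0.07 to 0.13, below muscle WT replicate 3 at 0.20.

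Outside the brain, 3 SR genes separated by genotype in liver, 2 in muscle and 0 in testis. In liver Srsf5 stood at 73.5, 80.5 and 80.3 CPM in KO against 137, 144 and 99.8 in WT, so every KO sample was below every WT sample. The log2 difference was −0.70 ± 0.155 (edgeR adjusted p = 0.116). DESeq2 called Srsf5 in liver (2.26% of genes called), as did edgeR without liver WT replicate 3 (adjusted p = 0.0348, share of all genes called not given here). The authors' deposited table gives Srsf5 a log2 difference of −0.71 and an adjusted p of 0.00365. Srsf1 was higher in KO liver, at 94.4, 95.9 and 90.5 against 65.7, 75.5 and 80.0 CPM (0.34 ± 0.12, edgeR adjusted p = 0.317), and Srsf3 was lower, at 38.5, 42.7 and 37.9 against 47.6, 45.5 and 49.5 CPM (−0.26 ± 0.115, adjusted p = 0.437). Neither set of values overlapped. edgeR called 0 of 10 genes in liver, against 0.411% of 11928; 3 of 10 had an unadjusted p under 0.05, against 11.4% of genes, and 3 of 10 did not overlap, against 17.3%. The WT liver libraries lay farther apart (median gap of 0.209 to 0.302 on the log2 scale) than the KO libraries (0.130 to 0.154).

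In muscle Srsf1 and Srsf10 were higher in KO. Srsf1 stood at 107, 99.6 and 105 CPM in KO against 69.7, 64.8 and 93.9 in WT, a log2 difference of 0.45 ± 0.136 (edgeR adjusted p = 0.0874). Srsf10 stood at 54.4, 55.1 and 53.5 CPM in KO against 39.4, 40.1 and 52.3 in WT, a difference of 0.31 ± 0.118 (edgeR adjusted p = 0.146). WT replicate 3 was the highest WT value for both genes and came close to the KO values. Without it edgeR called both, with adjusted p = 0.0215 for Srsf1 and 0.0384 for Srsf10. The share of all genes called in that fit is not given here. DESeq2 called Srsf1 (8.36% of genes called), and the authors' deposited table gives it a log2 difference of 0.44 and an adjusted p of 0.0367. edgeR with all muscle libraries called 0 of 10 genes, against 4.04% of 12688; 2 of 10 had an unadjusted p under 0.05 (25.9% of genes) and 2 of 10 did not overlap (31.4%), so both shares were at or below those of all genes. The summed microglia list (Cx3cr1, C1qa, Csf1r; 3 of 3) was 72.6 to 78.3 CPM in KO muscle against 40.0 to 48.7 in WT, and its part in these values was not tested. In testis 0 of 10 genes were called by edgeR (4.27% of 15465 genes) or by DESeq2, 0 had an unadjusted p under 0.05 (18.3% of genes) and all 10 overlapped, where 20.6% of genes did not; log2 differences ran from −0.09 ± 0.080 for Srsf4 to 0.15 ± 0.094 for Srsf9.

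In the first N2a experiment the libraries' own split crossed the siRNA groups, and no SR gene was separated by siRNA. Srsf1 stood at 312, 426 and 219 CPM with siFmr1 and at 350 and 191 with siNT. Srsf10 stood at 218, 300.2 and 90.7 CPM with siFmr1 and at 226 and 82.0 with siNT. In both genes siFmr1 replicate 3 lay beside siNT replicate 2, and the groups overlapped, as they did for all 10 genes (7.82% of all genes did not overlap). edgeR called 0 of 10 and 0% of 12187 genes, DESeq2 called 0, and 0 of 10 had an unadjusted p under 0.05 (0.386% of genes). Standard errors of the log2 differences were 0.293 for Srsf7 to 0.619 for Srsf10, so a step of the size seen in cortex was not detectable in these libraries.

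In the co-transfection experiment 2 SR genes, Srsf7 and Srsf9, were called higher in each of the 4 groups against siNT_pcDNA. Of all genes, 19.5%, 17%, 21.2% and 17.7% were called higher in the 4 comparisons, in the order given below. The share called higher in all 4 was not counted. Fitted to the 2 groups alone, siFmr1_pcDNA had 1 called SR gene and siMbnl1_cMBNL1 had 1. Srsf7 and Srsf9 were thus not both called in either of those fits. All 4 comparisons share the 3 siNT_pcDNA libraries. Values are the authors' normalized counts, tested with limma on log2(value + 1), with all 15 libraries in 1 fit. Srsf9 was at 2968, 3107 and 2717 normalized counts in siNT_pcDNA, 3655, 3623 and 3482 in siFmr1_pcDNA, 3742, 3586 and 3716 in siMbnl1_pcDNA, 3805, 3688 and 3408 in siFmr1_nMBNL1 and 3678, 3798 and 3749 in siMbnl1_cMBNL1. All 12 libraries of the 4 other groups lay above the 3 of siNT_pcDNA. The log2 differences of Srsf9 were 0.29 ± 0.063 (limma adjusted p = 0.0018), 0.33 ± 0.063 (0.000868), 0.31 ± 0.063 (0.000996) and 0.35 ± 0.063 (0.000442) in that order, and each stayed called when any 1 library was left out.

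Srsf7 was at 6378, 4441 and 5635 normalized counts in siNT_pcDNA, 6561, 6644 and 7122 in siFmr1_pcDNA, 8186, 7806 and 7410 in siMbnl1_pcDNA, 7043, 8028 and 7963 in siFmr1_nMBNL1 and 7294, 7202 and 6732 in siMbnl1_cMBNL1. siNT_pcDNA replicate 2 was the lowest of the 15, and no other group overlapped siNT_pcDNA. The log2 differences of Srsf7 were 0.32 ± 0.101 (limma adjusted p = 0.0209), 0.52 ± 0.101 (0.000983), 0.50 ± 0.101 (0.001) and 0.38 ± 0.101 (0.00807). The first of these was lost without siNT_pcDNA replicate 2 or siFmr1_pcDNA replicate 3 (adjusted p up to 0.0774), and the other 3 stayed called without any 1 library. Srsf3 was at 13767, 13250 and 13773 normalized counts in siNT_pcDNA, 17648, 16834 and 15507 in siMbnl1_pcDNA and 16003, 17710 and 18182 in siFmr1_nMBNL1. It rose in both of these groups, by 0.29 ± 0.071 (limma adjusted p = 0.00503) and 0.35 ± 0.071 (0.00111), calls that stayed without any 1 library. In siFmr1_pcDNA (14678, 14282 and 15819) and siMbnl1_cMBNL1 (15070, 15042 and 15133) Srsf3 also lay above every siNT_pcDNA value, but was not called (limma adjusted p = 0.155 and 0.118).

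The remaining calls rested on particular libraries. Srsf5 was at 6344, 5616 and 7134 normalized counts in siNT_pcDNA, 7556, 7264 and 7717 in siFmr1_pcDNA and 6858, 7370 and 8066 in siFmr1_nMBNL1. It rose in siFmr1_pcDNA by 0.25 ± 0.080 (limma adjusted p = 0.0242) and in siFmr1_nMBNL1 by 0.23 ± 0.080 (0.0321). The first call on Srsf5 was lost without siNT_pcDNA replicate 2 or siFmr1_pcDNA replicate 1 or 3 (adjusted p up to 0.078), and the second without siNT_pcDNA replicate 2 or siFmr1_nMBNL1 replicate 2 or 3 (up to 0.148). Srsf4 was at 2362, 2818 and 3167 in siNT_pcDNA and 3425, 3326 and 3308 in siMbnl1_cMBNL1. It rose there by 0.28 ± 0.086 (limma adjusted p = 0.0186), a call lost without siNT_pcDNA replicate 1 or siMbnl1_cMBNL1 replicate 1 (up to 0.0755). Srsf2 was at 17095, 14036 and 15395 normalized counts in siNT_pcDNA and 13635, 13596 and 13293 in siFmr1_pcDNA. It was the 1 SR gene called lower against siNT_pcDNA, at −0.19 ± 0.073 (limma adjusted p = 0.0458), and that call was kept in 1 of 6 fits without 1 library, the fit without siNT_pcDNA replicate 2 (adjusted p up to 0.159 in the others). Srsf1, Srsf6, Srsf10 and Srsf11 were not called against siNT_pcDNA in any of the 4 groups.

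As counts, 4 of 10 SR genes were called in siFmr1_pcDNA where 37% of 16242 genes were called, 3 in siMbnl1_pcDNA where 32.8% were, 4 in siFmr1_nMBNL1 where 41.1% were and 3 in siMbnl1_cMBNL1 where 33.7% were. The members' shares were therefore near those of all genes. Of the markers of neuroendocrine cells, Chga stood at 2569 to 4126 normalized counts in siNT_pcDNA, 7572 to 8501 in siFmr1_pcDNA, 4443 to 5810 in siMbnl1_pcDNA, 6419 to 8098 in siFmr1_nMBNL1 and 6277 to 6960 in siMbnl1_cMBNL1, and Th at 291 to 422 in siNT_pcDNA and 358 to 515 in the other groups; their part in the SR values was not tested. The summed neuron list (3 of 3) was 9635 to 10007 in siMbnl1_pcDNA and 9574 to 9888 in siMbnl1_cMBNL1, below 10263 to 10461 in siNT_pcDNA. It overlapped siNT_pcDNA in the siFmr1 groups. The cortex list (3 of 3) was 506 to 568 in siFmr1_pcDNA and 422 to 463 in siFmr1_nMBNL1, below 667 to 904 in siNT_pcDNA. It overlapped siNT_pcDNA in the siMbnl1 groups. The part of these lists was not tested. Median log2 differences of the 10 genes were 0.04, 0.12, 0.00 and 0.09, against 0.03, 0.01, 0.04 and 0.03 for all genes. With each comparison fitted to its own 2 groups, limma called 1, 2, 3 and 1 SR genes against 21.4%, 13.5%, 24.6% and 17.4% of all genes.

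**Figure D4:**
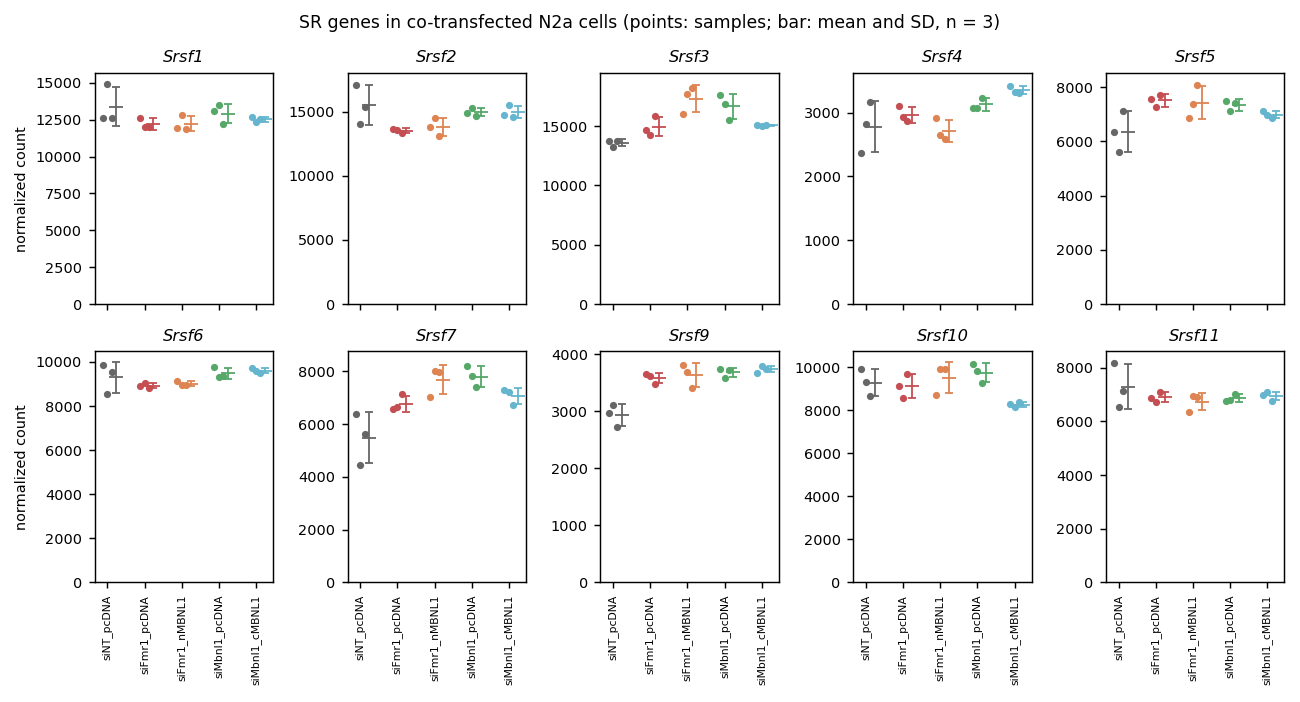
Normalized counts of each SR gene in the 15 co-transfection libraries, 5 groups of 3 with mean ± SD, 1 panel per gene with its own y axis. In the Srsf9 panel the siNT_pcDNA libraries (2717 to 3107) lie below all 12 others (3408 to 3805), and in the Srsf7 panel siNT_pcDNA replicate 2 is the lowest point at 4441.

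The groups were also compared with each other, without siNT_pcDNA. Adding FLAG-nuclear MBNL1 to the siRNA against Fmr1 gave 0 called SR genes (limma; 1.76% of genes called), with Srsf3 alone at an unadjusted p under 0.05 (17.9% of genes; 0.21 ± 0.071, adjusted p = 0.132). Adding FLAG-cytosolic MBNL1 to the siRNA against Mbnl1 also gave 0 (2.24% of genes), with Srsf10 alone at an unadjusted p under 0.05 (19.4% of genes). Srsf10 was at 10150, 9820 and 9269 normalized counts in siMbnl1_pcDNA and 8269, 8155 and 8367 in siMbnl1_cMBNL1, values that did not overlap and differed by −0.24 ± 0.074 (limma adjusted p = 0.0958). Srsf3 and Srsf7 (lower) and Srsf4 (higher) did not overlap there either, and the share of all genes without overlap is not given here. The siRNAs themselves, siFmr1_pcDNA against siMbnl1_pcDNA, gave 0 called SR genes where 35.3% of all genes were called, and 1 of 10, Srsf3, at an unadjusted p under 0.05 (44.2% of genes; −0.16 ± 0.071, limma adjusted p = 0.0968). In that last comparison the Srsf3 values overlapped, while those of Srsf2, Srsf6 and Srsf7 were lower in siFmr1_pcDNA without overlap. Fitted to the 2 groups alone, these comparisons called Srsf3 (14.2% of genes), Srsf10 (14.6%) and Srsf2, Srsf3 and Srsf7 (46.2%).

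Genes that act on SR proteins, or with them, were counted from 3 lists: 10 kinases and import factors (8 tested in the co-transfection table), 18 SR-related or SR-like factors and 15 factors of nonsense-mediated decay and the exon junction complex. No gene of the 3 lists was called by edgeR in any of the 6 KO tissues; in cortex the list medians were 0.06, 0.06 and 0.00 on the log2 scale, beside 0.21 for the SR genes. In siFmr1_pcDNA 1 kinase, Prpf4b, fell (log2 difference of −0.25), 3 SR-related factors rose and 6 fell, and 3 decay factors rose and 2 fell, where 19.5% of all genes tested rose and 17.5% fell. U2af1, a subunit of the factor that recognises the splice site at the end of introns, rose by 0.48 there, and Srrm2 and Son, both scaffolds of nuclear speckles, fell (−0.33 and −0.37). Upf3a, a decay factor, rose in all 4 groups, by 0.60 in siFmr1_pcDNA, 0.59 in siMbnl1_pcDNA, 0.77 in siFmr1_nMBNL1 and 0.62 in siMbnl1_cMBNL1. Rbm8a, a core exon junction subunit, also rose in all 4, by 0.49, 0.62, 0.70 and 0.61. Smg1, the kinase that phosphorylates UPF1, fell in siFmr1_pcDNA (−0.51) and siFmr1_nMBNL1 (−0.64). Of the CDC-like kinases, Clk2 fell in siMbnl1_pcDNA (−0.37) and siMbnl1_cMBNL1 (−0.55), and Clk3 fell in the same groups (−0.49 and −0.45). In siMbnl1_pcDNA the SR-related list had 2 higher and 3 lower and the decay list 5 and 1; in siFmr1_nMBNL1 they had 3 and 7, and 4 and 2; in siMbnl1_cMBNL1 they had 5 and 3, and 3 and 0. Over all genes 17% rose and 15.8% fell in siMbnl1_pcDNA, 21.2% and 19.9% in siFmr1_nMBNL1, and 17.7% and 16% in siMbnl1_cMBNL1, so the counts of these lists are given as a description and set none of them apart.

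Splicing of the SR genes themselves was read from junction counts, in which an event's inclusion level is the share of length-corrected junction reads that support the exon or the intron. The deposited tables give 2 sets of replicate values for each event, and the sources used here do not say which genotype or transfection is set 1 or set 2, so results are given by set. The first N2a table has 3 values in set 1 and 2 in set 2, the numbers of its siFmr1 and siNT samples. There are 4 co-transfection tables, each named here after the samples that the labels tie it to: the siFmr1_pcDNA table (which the siNT_pcDNA samples cite too), the siMbnl1_pcDNA table, the siFmr1_nMBNL1 table and the siMbnl1_cMBNL1 table. The names do not say which group a set holds. The siFmr1_pcDNA, siMbnl1_pcDNA and siMbnl1_cMBNL1 tables hold the same set 2 values, and set 2 of the siFmr1_nMBNL1 table equals set 1 of the siFmr1_pcDNA table, so their results are not independent. The 10 genes had 78 events, of which 71 (70 skipped exons and 1 retained intron, 39 distinct exons) reached an average of 20 junction reads for each replicate of both sets in 1 table or more. Srsf7 had 19 tested events and Srsf11 17, while Srsf2 had none. In 63 of the 70 skipped exon events every replicate was at 90% inclusion or above. The other 7 were the Srsf3 poison exon, the Srsf7 poison exon with either of 2 flanking exons, a 90-base exon of Srsf9 with either of 2, the 36-base exon of Srsf7 and the 51-base form of the Srsf10 exon.

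No SR event was called in a KO tissue. A quasi-binomial test on junction reads (adjusted p under 0.05 over all events of a table) called 0 of 3 events in cortex and 0 of 3 in hippocampus, 0 of 5 in cerebellum, 0 of 9 in liver, 0 of 8 in muscle and 0 of 12 in testis, against 0%, 0%, 0%, 0.63%, 1.12% and 0.39% of all skipped exon events. At an unadjusted p under 0.05 the SR counts were 1, 0, 1, 0, 1 and 0, against 8.6%, 5.54%, 4.81%, 12.6%, 10.6% and 10.3% of all events. By the authors' deposited rMATS FDR they were 0 in all 6, against 0.305%, 0.0865%, 0.0168%, 1.31%, 1.44% and 0.821% of events. No retained intron of an SR gene reached the read minimum in a tissue. The first N2a table gave 0 calls among 30 skipped exon events (0% of all), with 2 at an unadjusted p under 0.05 (6.13% of all) and 0 by the deposited FDR (0.964%). In the siFmr1_pcDNA, siMbnl1_pcDNA, siFmr1_nMBNL1 and siMbnl1_cMBNL1 tables, in this order, the calls were 3 of 44 (1.96% of all events), 1 of 44 (1.11%), 5 of 48 (3.58%) and 5 of 47 (3.06%), and by the authors' deposited FDR 2 (5.27%), 1 (6.12%), 2 (3.74%) and 3 (6.94%). With the further condition of a difference of at least 10 points, 0 SR events remained in each of these tables, where 0.892%, 0.559%, 0.715% and 0.877% of all events did, shares too small to set these 0 counts apart.

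The Srsf3 poison exon was included less in set 1 of the siFmr1_pcDNA and siMbnl1_pcDNA tables than in the set 2 they share. In set 2 its inclusion was 6.16%, 5.59% and 5.23%. In set 1 of the siFmr1_pcDNA table it was 4.12%, 3.35% and 3.50%, and in set 1 of the siMbnl1_pcDNA table it was 3.42%, 3.48% and 3.37%. No set 1 value reached a set 2 value. The difference was −2.0 points in the siFmr1_pcDNA table (3.66 ± 0.40 against 5.66 ± 0.47, SD of the 3 values, 4.61e-05 as quasi-binomial adjusted p) and −2.24 points in the siMbnl1_pcDNA table (2.82e-05), on means of 3304 to 4893 junction reads per replicate. The siMbnl1_pcDNA call stayed without any 1 value and the siFmr1_pcDNA call was lost without the third set 1 value (quasi-binomial adjusted p = 0.0722). In the siMbnl1_cMBNL1 table set 1 stood at 4.88%, 5.55% and 4.79% and overlapped set 2 (adjusted p = 0.343), and in the siFmr1_nMBNL1 table set 1 stood at 3.36%, 3.36% and 3.96% beside the set 1 values of the siFmr1_pcDNA table (0.745).

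Elsewhere the same Srsf3 exon had fewer reads. In the first N2a table its inclusion was 1.37%, 2.21% and 2.04% against 1.57% and 1.99%. In muscle it was 7.82%, 6.63% and 7.53% in set 1 against 2.24%, 4.49% and 4.70% in set 2, without overlap, on 213 and 217 mean junction reads (quasi-binomial adjusted p = 0.123). In liver it was 8.50%, 8.44% and 5.16% against 6.16%, 10.3% and 9.60%, and in testis 9.95%, 7.69% and 5.73% against 10.4%, 9.69% and 8.83%; both overlapped. In cerebellum it was 73.3%, 58.6% and 82.6% against 61.9%, 66.7% and 77.1% on only 23.3 and 26 mean reads, and in cortex and hippocampus the event fell under the read minimum. In the brain tables only 2 to 9 reads per replicate skipped the Srsf3 exon, and their junction lengths (68 and 34 bases for the longer and the shorter form) differ from those of all other tables (298 and 149). The part of read length and library type in the brain inclusion levels was not tested, so they are given beside the others with no comparison.

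**Figure D5:**
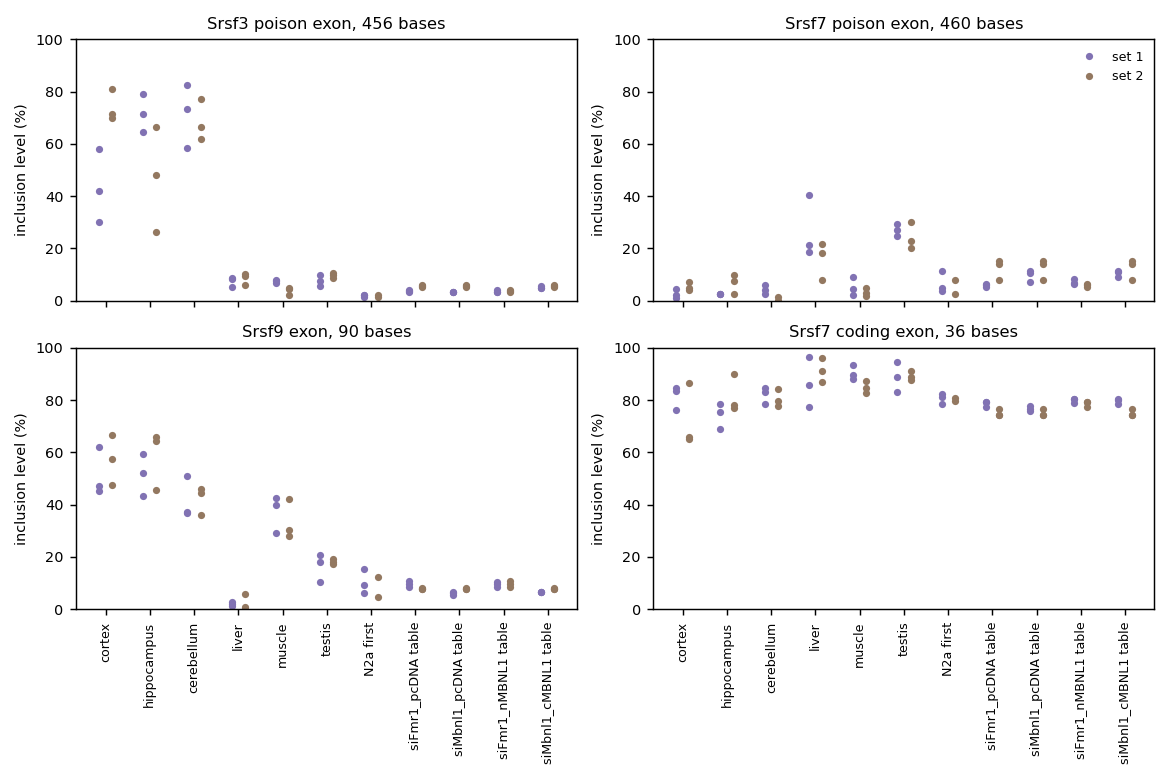
Inclusion level (%) in each replicate value of set 1 and set 2 in 11 tables, for the Srsf3 and Srsf7 poison exons, the Srsf9 90-base exon and the Srsf7 36-base coding exon. In the siFmr1_pcDNA table the set 1 values of both poison exons (3.35% to 4.12% for Srsf3, 5.41% to 6.26% for Srsf7) lie below all set 2 values.

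The Srsf7 poison exon also differed in the siFmr1_pcDNA table. Its inclusion between the adjacent exons was 6.26%, 6.06% and 5.41% in set 1 and 14.0%, 7.91% and 15.3% in set 2. All set 1 values lay below set 2, whose second value was far under the other 2. The difference was −6.52 points (5.91 ± 0.45 against 12.4 ± 4.0; quasi-binomial adjusted p = 2.33e-06), on 1279 and 1131 mean reads. It was lost without the third set 1 value (adjusted p = 0.0994) and kept in the other 5 fits. Set 1 stood at 11.5%, 10.7% and 7.26% in the siMbnl1_pcDNA table, which overlapped set 2 (adjusted p = 0.233), and at 10.8%, 9.0% and 11.2% in the siMbnl1_cMBNL1 table, which overlapped too (0.287). In the siFmr1_nMBNL1 table it stood at 6.40%, 8.20% and 6.58%, just above the set 1 values of the siFmr1_pcDNA table that serve as its set 2 (0.146). With another flanking exon, the same Srsf7 exon was at 98.5%, 100% and 100% against 84.5%, 100% and 86.0% in the siMbnl1_cMBNL1 table (adjusted p = 0.0438), on 107 and 68 mean reads; these values overlap and the call was kept in 1 of 6 fits without 1 value. In tissues the exon ranged up to 9.68% in the 3 brain regions, from 1.89% to 9.09% in muscle, from 7.94% to 40.5% in liver and from 20.3% to 30.1% in testis, with 27 to 161 mean reads, and no tissue was called.

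The 36-base coding exon of Srsf7, printed above, was included more in set 1 in 2 of the co-transfection tables. Set 2 stood at 76.4%, 74.3% and 74.2%. Set 1 stood at 79.5%, 77.4% and 79.5% in the siFmr1_pcDNA table and at 78.4%, 80.1% and 80.4% in the siMbnl1_cMBNL1 table, all above set 2. The differences were 3.80 points (quasi-binomial adjusted p = 0.0454) and 4.67 points (0.016). They were kept in 1 of 6 and 3 of 6 fits without 1 value (adjusted p up to 0.443 and 0.254). In the siMbnl1_pcDNA table (1.65 points, adjusted p = 0.47) and the siFmr1_nMBNL1 table (1.17 points, 0.485) the exon was not called, and over all 11 tables its inclusion ran from 65.3% to 96.6%.

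Further coding exons were included slightly less in set 1. The Srsf10 exon of 54 bases stood at 97.5%, 97.0% and 98.3% in set 1 of the siMbnl1_cMBNL1 table against 99.6%, 99.9% and 99.3% in set 2 (−2.02 points, quasi-binomial adjusted p = 0.00582). Its 51-base form, counted against the same skipping reads and so not independent, stood at 95.2 ± 1.39% against 99.2 ± 0.60% (−3.93 points, adjusted p = 0.00914). In the siFmr1_nMBNL1 table the Srsf10 forms differed by −1.08 (0.0421) and −2.13 points (0.0399). A 149-base exon of Srsf6 (chr2:162931994-162932142) stood at 99.2%, 98.5% and 99.2% in the siMbnl1_cMBNL1 table against 100%, 100% and 99.9% (−0.99 points, adjusted p = 0.0101), and differed by −0.89 points in the siFmr1_nMBNL1 table (0.0284). Srsf3 exons of 208 and 135 bases, which share a skipping junction, differed by −0.38 (0.042) and −0.41 points (0.0412) in the siFmr1_nMBNL1 table. The calls in the siMbnl1_cMBNL1 table on Srsf10 and Srsf6 were kept in 3 of 6 fits without 1 value (adjusted p up to 0.235), and the calls in the siFmr1_nMBNL1 table on all of these exons in 0 of 6 (up to 0.419).

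The retained intron of Srsf1 was lower in set 1 of the siMbnl1_cMBNL1 table. The level of retention was 7.96%, 6.71% and 6.55% in set 1 and 10.1%, 11.1% and 11.4% in set 2, with no overlap. The difference was −3.80 points (7.07 ± 0.77 against 10.9 ± 0.73; quasi-binomial adjusted p = 0.00948), where 7.94% of 252 retained introns were called, and it was lost without the second or the third set 1 value (adjusted p up to 0.0794). In the siMbnl1_pcDNA table set 1 stood at 8.05%, 8.92% and 8.32%, also below all set 2 values, with an adjusted p of 0.151 here and an FDR of 0.0158 in the authors' deposited table, where 27.3% of introns were under 0.05. In the siFmr1_pcDNA table (8.85%, 8.09% and 10.9%, adjusted p = 0.477) and the siFmr1_nMBNL1 table (8.31%, 9.02% and 8.89%, 0.721) the Srsf1 values overlapped their set 2. In the other 3 co-transfection tables the event was not called, where 4.76%, 3.52% and 2.63% of retained introns were. The first N2a table, made from other libraries, had 1 read of the retained Srsf1 form over its 5 replicate values, on 444 and 441 mean reads (adjusted p = 0.870; 0% of 95 introns called).

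Inclusion of an Srsf9 exon also varied widely across tables. The exon has 90 bases (chr5:115331450-115331539, plus strand), and the annotation places it only in transcripts with no reading frame through it. Its inclusion was 51.5 ± 9.2% in set 1 and 57.3 ± 9.5% in set 2 of cortex, 51.6 ± 8.0% and 58.5 ± 11.3% in hippocampus and 41.7 ± 8.1% and 42.1 ± 5.3% in cerebellum. It was 37.1 ± 7.1% and 33.5 ± 7.7% in muscle, 16.3 ± 5.2% and 18.03 ± 1.0% in testis and 2.02 ± 0.68% and 2.16 ± 3.1% in liver. Levels thus lay near 2% in liver and above 30% in muscle on libraries of the same kind, set side by side without a test, while the 2 sets of each tissue overlapped. In the siFmr1_pcDNA table the Srsf9 exon stood at 9.54%, 8.56% and 10.6% in set 1 against 7.66%, 7.99% and 7.71% in set 2, and in the siMbnl1_pcDNA and siMbnl1_cMBNL1 tables set 1 was lower at 5.37%, 6.25% and 6.67% and at 6.66%, 6.65% and 6.46%. None of these 3 overlapped its set 2, and none was called (quasi-binomial adjusted p = 0.175, 0.207 and 0.232). In size the set means of this exon differed by 1.77, 1.69 and 1.20 points in these tables and by 0.04 points in the siFmr1_nMBNL1 table.

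How far the SR genes varied together was described across the 18 brain libraries and the 15 N2a co-transfection libraries. Pearson's r between a gene and the mean of the other 9, on standardised log2 values, was 0.95 for Srsf1, 0.93 for Srsf10 and 0.90 for Srsf11 in brain, but 0.46 for Srsf4 and −0.05 for Srsf9. In the N2a libraries the highest was 0.72 for Srsf7 and the lowest −0.40 for Srsf1. The brain points share region and genotype, so these values describe the libraries and carry no p. The genes outside the list with the pattern most like the mean of the 10 were 4930503L19Rik (r = 0.98), Cpsf6 (0.97), Desi2 (0.97), Zbed6 (0.96) and Ubn2 (0.96) among 15494 genes in brain, and Mrpl50 (0.95), Naa20 (0.95), Gemin6 (0.94), Iqcd (0.94) and Gm561 (0.93) among 16232 genes in N2a cells.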

How the data were processed

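RNA-seq tables of 56 samples were analysed. Gene counts and TPM of the tissues and the first N2a experiment are the authors' deposited values, which the file headers give per sample; 2 columns of counts matched no sample's labels and 4 rows of repeated gene names were left out. The co-transfection table holds normalized counts as deposited by the authors, a signal whose scaling is not stated in the file. The authors' deposited log2 fold changes with their adjusted p-values are quoted only where named. For splicing, per the file headers the deposited rMATS tables give inclusion and skipping junction reads, the lengths of the forms, the FDR and the inclusion difference, a score recomputed here from the reads. The submitters' processing notes name GRCm38, mm10, Bowtie2 2.3.5, CASAVA, DESeq2 1.16.1, FastQC 0.11.8, RSEM 1.3.1, STAR 2.6.1 and Trimmomatic 0.39, with no roles; per the labels' protocols the brain and co-transfection kits are directional, and strand use in counting is not given in the sources used here.

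Counts were tested per comparison with edgeR 4.0.16 (quasi-likelihood, TMM scaling, its own filter on low counts) in R 4.3.3, and log2(normalized count + 1), where the gene's mean reached 1, with limma 3.58.1 (trend) over all 15 libraries. Standard errors are of log2 differences. Junction reads were tested with a quasi-binomial model at an average of at least 20 reads in both sets, its dispersion moderated toward a trend with reads and not below 1, with no minimum difference; the trend was chosen on simulated data after the files were seen. Adjusted p-values are Benjamini-Hochberg over all genes or events of a table, called under 0.05, and all tests are two-sided. Alternatives were DESeq2 1.42.0, other scaling, filters, pseudocounts, read minimums, deposited FDR, replicate blocks and leaving out each library. The models were tested on simulated data. Events were matched to GENCODE M21 annotation of GRCm38, whose transcripts gave the sequences. Intervals by counting are not given, since replicate spread is the error used.

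The members, the marker and pathway lists and the tests were chosen with earlier results of these data known; 2 of the marker lists are not reported here as sums, and single genes of them are given, chosen after their values were seen. All 10 members are named; of the pathway lists, genes called in a comparison are named by the size of their change, and the 5 genes most like the members by Pearson's r.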

Additional observations from a re-analysis of the deposited data

Results flagged for a closer look

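The values of Srsf3 separated by genotype in opposite directions in different tissues: every Fmr1 KO sample lay above every WT sample in cortex (log2 difference of 0.2) and in hippocampus (0.14), and every KO sample lay below every WT sample in liver (−0.26). Srsf5 did the same between cortex (0.09) and liver (−0.7). None of these steps was called by edgeR with all libraries of the tissue. Of all genes, 25.7% in cortex, 19.1% in hippocampus and 17.3% in liver did not overlap between genotypes. The brain and liver libraries come from separate tables and RNA selections, and the difference between tissues was not tested. Groups of 3 were not screened for single outlying samples.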

How the results depend on the processing

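Of the counts of SR genes or events recomputed under another setting, leaving-out aside, 171 stayed within 1.5 times the reported count and 18 did not. In cortex 0 calls became 5 with DESeq2 and 5 with all 18 brain libraries in 1 fit. DESeq2 also called 1 in liver, 1 in muscle and 2 in the interaction of cortex with cerebellum, where edgeR called 0. With limma fitted to only the 2 groups compared, siFmr1_pcDNA had 1 call in place of 4 and siMbnl1_cMBNL1 1 in place of 3, and the comparisons without siNT_pcDNA had 1 (siFmr1_nMBNL1 against siFmr1_pcDNA), 1 (siMbnl1_cMBNL1 against siMbnl1_pcDNA) and 3 (siFmr1_pcDNA against siMbnl1_pcDNA) in place of 0. A minimum difference of 10 points left 0 skipped exon calls in each of the 4 co-transfection tables and 0 retained intron calls in the siMbnl1_cMBNL1 table. The deposited FDR gave 2 skipped exon calls in the siFmr1_nMBNL1 table, 3 in the siMbnl1_cMBNL1 table and 1 retained intron call in the siMbnl1_pcDNA table. The cause of these changes was not tested.

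Leaving out 1 library at a time, calls ranged from 0 to 5 in cortex (5 without WT replicate 3), 0 to 1 in liver, 0 to 2 in muscle, and 0 to 2 in the interaction of cortex with cerebellum. Among WT regions they ranged from 2 to 4 (cortex against hippocampus), 8 to 10 (cortex against cerebellum) and 8 to 10 (hippocampus against cerebellum). Against siNT_pcDNA they ranged from 1 to 3 in siFmr1_pcDNA, 3 to 5 in siMbnl1_pcDNA, 3 to 5 in siFmr1_nMBNL1 and 2 to 5 in siMbnl1_cMBNL1. Leaving out 1 junction value, skipped exon calls ranged from 0 to 3, 1 to 2, 0 to 0 and 0 to 7 in the 4 tables in the same order, and the retained intron call of the siMbnl1_cMBNL1 table from 0 to 1. All other counts stayed at 0 when 1 library or value was left out. Among single genes and events under the other settings, 999 values kept their side of the threshold, 21 became called and 14 lost their call; with 1 library or value left out the numbers were 2003, 22 and 98. No recomputed value of a called gene or event changed direction.

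In 0 of 23 comparisons checked did all same-numbered samples deviate together (correlation over 0.1 in every one of 3 pairs). The first N2a experiment had only 2 such pairs and could not meet this rule. KO hippocampus with KO cerebellum came closest, at 0.0929 to 0.229 for same-numbered samples and −0.192 to −0.00597 for the others. WT hippocampus with WT cerebellum stood at 0.0457 to 0.179 and −0.146 to 0.0807. Whether regions came from the same animals is not known. In the main tests the numbers pair no samples, and regions were treated as independent. With a replicate block, calls were 0 in all 6 KO tissues, 3, 10 and 9 among the WT regions, and 3, 4, 4 and 3 against siNT_pcDNA. The shares of all genes called in these blocked fits are not given here. No paired analysis was possible for splicing because the junction values carry no replicate numbers.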
